A study of Mus musculus with 12 samples.

Results

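The comparison described here sets TH17 cells lacking both IL-17A and IL-17F against wild-type TH17 cells within the SLAMF6+ fraction recovered from the central nervous system (CNS). It uses 6 of the 12 sequenced libraries, chosen by their labels: 1 double knockout (DKO) SLAMF6+ library, numbered 0, and 5 wild-type (WT) SLAMF6+ libraries, numbered 1 to 5. All genes entered the test, and 18536 of the 47359 genes in the table passed the filter on low counts. The remaining 6 libraries, 1 DKO and 5 WT, are CXCR6+ cells and serve only for the test of whether a DKO difference was unlike between the subsets.

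The donor cells carry the label 2D2, a transgenic T cell receptor that recognises myelin oligodendrocyte glycoprotein, in genotypes named 2D2-WT and 2D2-IL-17A/F-DKO. These TH17 cells had been transferred into RAG2-/- hosts, in which no endogenous T or B cells develop but innate cells remain. They were sorted from the CNS at the peak of experimental autoimmune encephalomyelitis, an inflammatory disease used to model multiple sclerosis. Each library was made from 1000 living sorted cells by a modified SMART-Seq2 protocol, which amplifies full-length cDNA and does not mark the strand. The labels give no age or sex of the mice and do not say whether libraries of a group came from separate animals. Each p therefore measures only the spread between these libraries, which may be technical. The DKO group has no replicate, and its library was assumed to vary like the 5 WT libraries. An exact permutation of the single library over the 6 libraries could not go below a one-sided p of 0.167. In bulk RNA, fewer cells of a type and less RNA per cell cannot be told apart.

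IL-17A and IL-17F are secreted as homodimers or as a heterodimer and act through the receptor chains IL-17RA and IL-17RC, mostly on stromal, epithelial and glial cells. TH17 cells make them under transcription factors that include IRF4, BATF and STAT3, and are kept in the tissue by IL-23. In the inflamed CNS, SLAMF6, a self-binding receptor of the SLAM family, marks T cells with a stem-like, recirculating programme, and CXCR6, the receptor for CXCL16, marks a more differentiated, pathogenic state.

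Beyond the levels of the deleted genes, the library labelled DKO stood apart from the 5 WT libraries in several other measures. Its name below follows its label. Library totals were 8285134 counts in DKO and 8134987 to 11635037 in WT. Spearman correlations were 0.743 to 0.755 between DKO and each WT library and 0.914 to 0.938 among the 10 pairs of WT libraries. The T cell receptor did not match the 2D2 label in the DKO library. Trbv16, the segment of the 2D2 β chain, made up 764 of 11729 Trbv counts there (6.51%, 95% exact binomial interval 6.07 to 6.98%, counting error only) and 99.74 to 99.81% in the WT libraries. The α chain segments Trav9n-3 and Trav9d-3 together held 0.118% of Trav counts in DKO and 89.41 to 90.88% in WT. Expressed as an effective number of equally used segments, Trbv usage came to 13.8 in DKO and 1.02 in each WT library. The sex-linked genes split by genotype too. Xist had 0 counts in DKO and 39.0 to 57.6 CPM in WT, and Ddx3y stood at 32.1 CPM in DKO and 0 in every WT library. Mitochondrial transcripts made up 9.72% of the counts without haemoglobin in DKO and 2.20 to 5.24% in WT. The noncoding RNA Malat1 made up 0.674% in DKO and 0.187 to 0.257% in WT. Receptor repertoire, sex-linked genes, library makeup and genotype cannot be told apart in this comparison.

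T cell transcripts were present in all 6 libraries, while the 2D2 receptor of the label was not the main receptor in DKO, as given above. Gene levels are CPM values, obtained by scaling the counts to a library total without haemoglobin, adjusted with TMM factors over the 6 libraries. Cd3e, a chain of the T cell receptor complex, stood at 485 CPM in DKO and at 206, 215, 214, 194 and 213 CPM in WT replicates 1 to 5. Cd4, the coreceptor of helper T cells, stood at 301 CPM in DKO and 268 ± 19.3 CPM in WT (SD, n = 5) and did not pass the test. Transcripts of other cells were also present, and more of them in the DKO library. Marker lists of such cells are given by their summed levels, since many markers were silent in WT, passed the filter on low counts only through DKO and could only be called higher. Haemoglobin made up 11.9% of all DKO counts and at most 18 counts in any WT library. Erythroid markers summed to 128100 CPM in DKO and 1.04 to 4.06 CPM in WT. Nearly all of the DKO sum was this same haemoglobin, scaled to a total that leaves it out.

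NK cell markers summed to 1229 CPM in DKO and 265 to 415 CPM in WT. Most of both sums came from Nkg7, also in the cytotoxic granule list (697 CPM in DKO, a mean of 317 CPM in WT). Ncr1, a receptor that defines NK cells, stood at 14.8 CPM in DKO and at 0 to 0.128 CPM in WT. Dendritic cell markers summed to 1597 CPM in DKO and 591 to 670 CPM in WT. Xcr1, the chemokine receptor of cross-presenting dendritic cells, stood at 14.7 CPM in DKO and at 0 to 0.384 CPM in WT. Neutrophil markers summed to 88.9 CPM in DKO and 0.435 to 1.31 CPM in WT, while Ly6g, Mpo, Elane and Mmp8 had 0 counts in DKO. Monocyte and macrophage markers summed to 52.4 CPM in DKO and 9.85 to 17.2 CPM in WT, with C1qc and Cd14 among those at 0 in DKO. B cell markers summed to 145 CPM in DKO, inside the WT range of 35.8 to 214 CPM, with Ms4a1, Pax5, Ighd and Ebf1 at 0 in DKO. Astrocyte markers went the other way (2.71 CPM in DKO, 189 to 206 CPM in WT), and 2 of the 10, Aldoc and Gja1, made up most of the WT sum (123 and 64.6 CPM). Gfap, the defining astrocyte marker, had 0 counts in all 6 libraries. The part of these cells in the differences below was not tested.

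**Figure D1:**
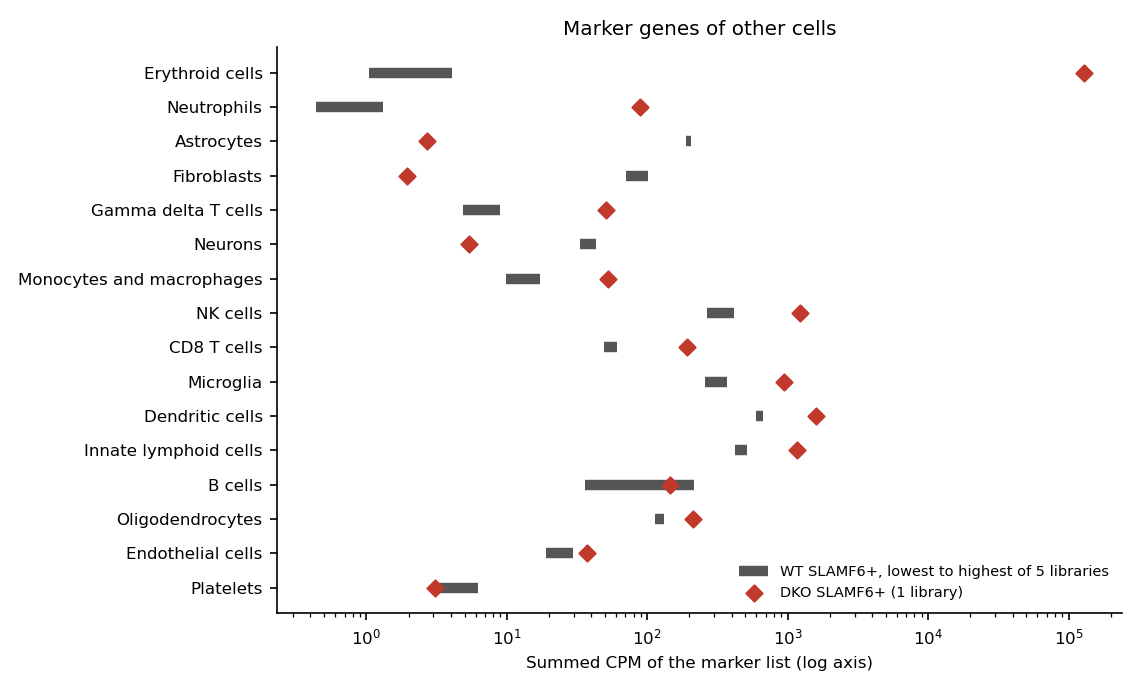
Summed CPM of marker genes of 16 other cell types on a log axis, as the range of the 5 WT SLAMF6+ libraries (bar) and the value of the DKO SLAMF6+ library (diamond). Erythroid markers reached 128100 CPM in DKO, nearly all of it haemoglobin, and at most 4.06 CPM in WT. Astrocyte and fibroblast markers stood below the WT range. Most of the WT fibroblast sum came from a single gene, Lum.

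Most well-expressed genes differed between the library labelled DKO and the WT libraries. By edgeR's quasi-likelihood test at a Benjamini-Hochberg adjusted p of 0.05, 3067 genes were higher (16.5% of those tested) and 4275 were lower (23.1%), 39.6% in all. All 7342 called genes had a DKO value outside the WT range, as had 72.8% of all genes tested. The called share rose with the level, from 4.16% of genes under 1 CPM to 61.2% between 20 and 100 CPM and 77.8% between 100 and 1000 CPM. Over all genes tested the median log2 difference was -0.11. Higher genes made up 41.8% of the calls, but 61.2% with limma-voom, which called 4753 higher and 3016 lower genes. At least 2-fold, 2322 genes were higher (12.5%) and 3041 lower (16.4%). The counts of called members in the gene lists below are read against these shares. Some list members, such as Klf2, Cxcr5, Foxp3 and Ccr6, were near 0 in all WT libraries. They passed the filter on low counts only through DKO and could only be called higher. The counts of higher members therefore follow in part from the filter.

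The targeted cytokine genes were nearly absent from the DKO library. Il17a (chr1:20730905-20734496 in the GRCm38 build) stood at 307, 208, 416, 317 and 271 CPM in WT replicates 1 to 5, and the DKO library held 3 counts of it (0.387 CPM). All 5 WT libraries lay far above DKO. The ratio was 801-fold (95% interval from Poisson counting 274 to 3890), with an edgeR adjusted p of 0.00014. Il17f (chr1:20777146-20790617), its neighbour on the same chromosome, stood at 57.4, 56.2, 68.1, 71.5 and 127 CPM in WT, and the DKO library held 1 count (0.129 CPM). WT replicate 5 was the highest, and no WT library came near DKO. That ratio was 600-fold (108 to 23700), with an edgeR adjusted p of 0.000844. Neither gene passed with limma-voom (adjusted p 0.116 and 0.338).

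Both genes of the sort were higher in DKO, the CXCR6 gene included, although the cells were sorted as SLAMF6+. Slamf6 (chr1:171917515-171953170) stood at 6.39, 5.37, 6.74, 9.49 and 9.69 CPM in WT and 231 CPM in DKO, 30.6-fold higher (log2 4.93, SE 0.25, edgeR adjusted p 3.47e-05). Cxcr6 (chr9:123806475-123811760) stood at 17.3, 14.3, 15.7, 14.9 and 10.04 CPM in WT and 144 CPM in DKO, 9.98-fold higher (log2 3.32, SE 0.21, adjusted p 8.23e-05). The groups did not overlap for either gene. The list of 11 SLAM family genes holds adhesion receptors that bind themselves or each other between lymphocytes, and adaptors such as SAP through which they signal. Of the 11, 7 were higher, the sort gene Slamf6 among them, and 2 lower, with a median log2 difference of 1.94. Of the higher members, Slamf9 and Cd244a were near 0 in WT, passed the filter only through DKO and could only be called higher. Ly9 (SLAMF3) stood at 67.9 CPM in DKO and 30.7 ± 1.97 CPM in WT. Cd48, the ligand of the receptor CD244, stood at 354 CPM in DKO and 92.2 ± 7.95 CPM in WT. The 2 lower members were Slamf1 (33.4 against 91.5 ± 6.0 CPM) and Slamf7 (32.4 against 108 ± 10.8 CPM). Sh2d1a, which encodes SAP, and the adaptor gene Sh2d1b1 did not pass the test.

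Il17ra, which encodes a receptor chain for IL-17A and IL-17F, was higher in DKO while the genes of these ligands were lower. Of 8 tested genes of the IL-17 family and its receptors, 4 were higher and 2, the deleted cytokines, were lower. Il17ra, the shared receptor chain, stood at 90.3 CPM in DKO and at 28.7, 24.2, 22.3, 27.6 and 25.9 CPM in WT, 3.51-fold higher (log2 1.81, SE 0.13, edgeR adjusted p 0.000137). The WT libraries lay close together and below DKO. Il17re, the receptor chain for IL-17C, stood at 44.2 CPM in DKO and 6.88 ± 0.987 CPM in WT. Il17rc, the partner of IL-17RA, stood at 6.71 CPM in DKO and at 0.175 to 1.90 CPM in WT. Its call (edgeR adjusted p 0.0413) was lost when WT replicate 2, 3, 4 or 5 was left out (adjusted p 0.0544 to 0.0753). Traf3ip2, which encodes the adaptor Act1 of these receptors, was higher as well (41.3 CPM in DKO, 21.9 to 30.8 CPM in WT). Il17rb and Il17rd did not pass the test, and Il17b, Il17c, Il17d and Il25 did not pass the filter on low counts.

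The other TH17 genes did not move in 1 direction. Of the 19 tested, the deleted cytokines included, 6 were higher and 10 lower, with a median log2 difference of -0.66. The 10 lower members became 6 with limma-voom on all 12 libraries and the replicate number as a random block. Among the lower genes, Il21, a cytokine that acts on B cells and on TH17 cells themselves, had 3 counts in DKO (0.387 CPM) and stood at 206, 232, 183, 191 and 197 CPM in WT, a ratio of 517-fold (177 to 2510). Il23r, the receptor chain for IL-23, had 1 count in DKO and 27.7 to 37.4 CPM in WT, a ratio of 244-fold (43.8 to 9650). Both were far below every WT library. Irf4, a transcription factor induced through the T cell receptor, stood at 1.93 CPM in DKO and at 212, 198, 211, 228 and 239 CPM in WT (log2 -6.81, SE 0.20, edgeR adjusted p 1.09e-05). Batf and Stat3 were lower too.

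Among the higher TH17 genes was Ccr6, the receptor for CCL20 through which TH17 cells can enter the CNS. It had 0 counts in all 5 WT libraries and 46.1 CPM in DKO, at least 825-fold higher against a floor of 3 counts over the WT group. Rora, which encodes a nuclear receptor, stood at 43.5 CPM in DKO and 20.3 ± 3.05 CPM in WT. Tmem176b, an ion channel gene, stood at 113 CPM in DKO and 22.4 ± 4.11 CPM in WT. Il22, a cytokine that acts on epithelia, stood at 7.35 CPM in DKO and at 0, 0.768, 0.175, 0.610 and 0 CPM in WT (log2 4.57, SE 1.39, edgeR adjusted p 0.0401). The Il22 call was lost with all 12 libraries in the fit (adjusted p 0.0961) and without WT replicate 3 (0.0739) or 4 (0.0510).

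**Figure D2:**
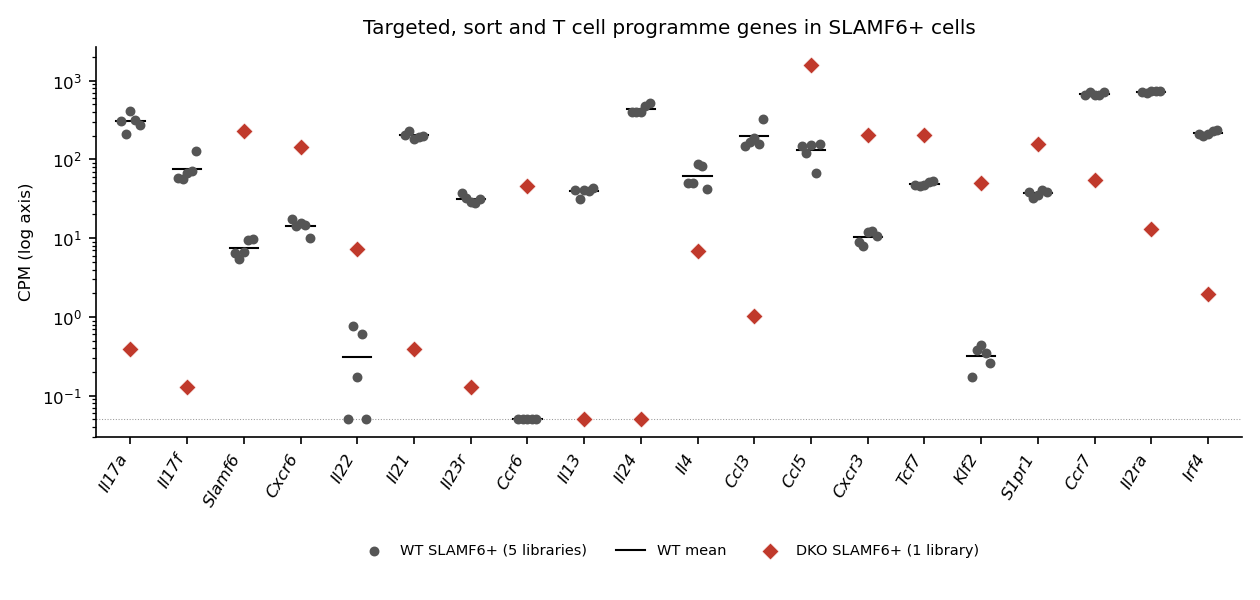
CPM of 20 genes on a log axis in the 5 WT SLAMF6+ libraries (dots, with their mean as a line) and in the DKO SLAMF6+ library (diamond). Points on the dotted line are at 0 counts. Il17a and Il17f stood near 0 in DKO, and Slamf6, Cxcr6, Ccr6, Ccl5, Cxcr3 and Klf2 lay above all WT libraries.

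TH1 genes were split by role: receptors for chemokines and IL-18 were higher in DKO, and the CCL3 and CCL4 genes and receptors for IL-12 were lower. Of 17 tested, 7 were higher and 8 lower, or 5 lower with the random block, with a median of -0.33. Cxcr3, a chemokine receptor of TH1 cells, stood at 8.98, 7.93, 11.9, 12.5 and 10.7 CPM in WT and 204 CPM in DKO (log2 4.29, SE 0.19, edgeR adjusted p 2.4e-05). Il18rap, a chain of the IL-18 receptor, stood at 50.3 CPM in DKO and 0.926 ± 0.301 CPM in WT. Ccl5, a chemokine of memory T cells and NK cells, reached 1591 CPM in DKO and 149, 122, 154, 67.8 and 158 CPM in WT. These genes lay far above the WT range. Tbx21, which encodes T-bet, stood at 28 CPM in DKO and 16.7 ± 2.79 CPM in WT (log2 0.75, SE 0.23, edgeR adjusted p 0.0407). It did not pass in 6 of 15 other settings, with an adjusted p of at most 0.0755.

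Il12rb2, the signalling chain of the IL-12 receptor, stood at 12.3 CPM in DKO and 296 ± 18.3 CPM in WT. Ccl3, a chemokine released by activated T cells, stood at 1.03 CPM in DKO and at 150, 165, 185, 157 and 324 CPM in WT. WT replicate 5 was highest, and DKO lay 190-fold below the WT mean (edgeR adjusted p 0.000613, but 0.0785 with limma-voom). Ccl4, its neighbour on chromosome 11, stood at 7.22 CPM in DKO and 222 ± 85.1 CPM in WT. Ifng, the TH1 cytokine, stood at 7.48 CPM in DKO, inside the WT range of 0.768 to 44.8 CPM, and did not pass the test.

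None of the 11 tested TH2 genes was higher in DKO and 7 were lower, with a median of -3.19. Il13, an effector cytokine of TH2 cells, stood at 41.2, 31.0, 41.5, 39.2 and 43.8 CPM in WT and had 0 counts in DKO, which with 3 counts as the floor of that library puts it at least 102-fold lower. Il24, a cytokine of the IL-10 family, stood at 395, 399, 405, 475 and 524 CPM in WT and also had 0 counts in DKO, at least 1140-fold lower. Il5 had 0 counts in DKO and 3.67 to 18.6 CPM in WT, at least 25.2-fold lower, with an edgeR adjusted p of 0.0192 that was 0.602 with limma-voom. Il4 was present in both genotypes and lower in DKO (6.84 CPM, against 62.3 ± 20.8 CPM in WT). Gata3, the TH2 transcription factor, stood at 108 CPM in DKO and 176 ± 19.0 CPM in WT. Il4ra, the IL-4 receptor chain, stood at 38.1 CPM in DKO and 285 ± 10.4 CPM in WT.

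Several receptors of activated T cells, among them Il2ra, Ctla4 and Tnfrsf9, were lower in DKO, while the lists that hold them were mixed. In the Treg list, whose members are largely shared with activated T cells, 9 of 14 tested genes were lower and 3 higher (median -2.84, or -1.96 with members at 0 counts in a group set to their bounds). Il2ra, the high-affinity IL-2 receptor chain, stood at 718, 700, 734, 741 and 728 CPM in WT and 13.0 CPM in DKO (log2 -5.79, SE 0.10, edgeR adjusted p 3.52e-06). The 5 WT libraries agreed closely. Ctla4, an inhibitory receptor, stood at 5.29 CPM in DKO and 161 ± 20.5 CPM in WT. Foxp3, the Treg factor itself, was higher in DKO at a low level (4.77 CPM, against 0 to 0.175 CPM in WT).

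Of 14 genes of the tumour necrosis factor receptor family and their ligands, 7 were lower and 3 higher (median -0.64). Tnfrsf9, which encodes the costimulator 4-1BB, stood at 698, 512, 682, 618 and 624 CPM in WT and 4.26 CPM in DKO, 147-fold lower. Tnfrsf4, which encodes OX40, stood at 56.1 CPM in DKO and 637 ± 54.6 CPM in WT. The neighbouring lymphotoxin genes on chromosome 17 went opposite ways. Lta, for soluble lymphotoxin α, was lower (9.29 against 135.4 ± 11.601 CPM), and Ltb, for the membrane-anchored partner, was higher (527 against 172 ± 7.82 CPM). Of 13 inhibitory receptor genes, 5 were higher and 5 lower (median 0.10). Of 11 follicular helper genes, 4 were higher and 4 lower (median -0.14), among them Cxcr5, the receptor that guides T cells into B cell follicles (26.7 CPM in DKO, 0 to 0.698 CPM in WT), and Cd200, an inhibitory ligand (36.1 CPM in DKO, 994 ± 51.2 CPM in WT).

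Genes of the stem-like and quiescent state were mostly higher in DKO, although SLAMF6+ cells of both genotypes were compared. Of the 20 tested, 13 were higher and 5 lower, with a median log2 difference of 1.37. Tcf7, which encodes the stem-like factor TCF1, stood at 46.8, 45.4, 47.7, 51.1 and 53.8 CPM in WT and 203 CPM in DKO (log2 2.05, SE 0.09, edgeR adjusted p 2.66e-05). Klf2, a factor that keeps T cells quiescent and recirculating, stood at 0.173, 0.384, 0.437, 0.348 and 0.262 CPM in WT and 50.6 CPM in DKO, 158-fold higher. S1pr1, the exit receptor that KLF2 controls, stood at 158 CPM in DKO and 37.4 ± 3.49 CPM in WT. All 3 lay above every WT library. Il7r, a receptor for the survival cytokine IL-7, stood at 274 CPM in DKO and 71.1 ± 3.59 CPM in WT. The lower members included Ccr7, the lymph node homing receptor (54.4 against 681 ± 36.5 CPM), and Bach2, a repressor of effector genes (8.51 against 37.9 ± 0.772 CPM). Lef1 did not pass the test.

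Residency genes were higher in DKO in 9 of 15 cases and lower in 3 (median 1.80). Id2, a factor of effector and resident lymphocytes, stood at 718 CPM in DKO and 207 ± 19.8 CPM in WT. Rgs1, a G protein regulator of tissue T cells, was among the lower members (19.5 against 480 ± 43.0 CPM). Of 15 tested chemokine receptor genes, 9 were higher and 5 lower (median 1.80). Of 17 integrin and adhesion genes, 11 were higher and 2 lower (median 1.44). Itga4 and Itgb1, which encode the chains of VLA-4, the integrin that T cells use to enter the CNS, were both higher. Itga4 stood at 6.05, 3.97, 6.30, 3.57 and 4.02 CPM in WT and 166 CPM in DKO, and Itgb1 at 111 CPM in DKO and 15.4 ± 2.43 CPM in WT. Itgb7, the partner of α4 in gut homing, stood at 673 CPM in DKO and 40.9 ± 6.41 CPM in WT. Itgav, the αv chain, was lower (9.67 against 34 ± 4.79 CPM).

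Cytotoxic granule genes were higher in DKO in 9 of 14 cases and lower in 3 (median 1.42), beside the NK cell markers given above, whose part was not tested. Gzmk, a granzyme of memory T cells and NK cells, had 0 counts in all 5 WT libraries and stood at 60.5 CPM in DKO, at least 1080-fold higher. Gzmk, Gzmm and Eomes, near 0 in WT, passed the filter only through DKO and could only be called higher. Gzma, a granzyme of NK cells and killer T cells, stood at 1.3, 0, 5.42, 2.96 and 0 CPM in WT and 109 CPM in DKO (edgeR adjusted p 0.0124, and 0.138 with DESeq2's Wald test). Ctsw, a cathepsin of cytotoxic lymphocytes, stood at 324 CPM in DKO and 25.6 ± 4.23 CPM in WT. Gzmb, the granzyme of activated effectors, was lower (27.9 CPM in DKO, 520, 360, 562, 489 and 445 CPM in WT). The granzymes thus did not move together.

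Components of the T cell receptor complex were higher in DKO, while the genes that receptor signalling induces were lower. Of 17 receptor complex and proximal signalling genes, 10 were higher and 3 lower (median 0.53). Lat, the adaptor that links the receptor to its downstream pathways, stood at 249, 212, 274, 265 and 270 CPM in WT and 880 CPM in DKO (log2 1.79, SE 0.13, edgeR adjusted p 0.000117). The lower members included the costimulatory receptors Cd2 and Cd28, whose calls were lost with all 12 libraries in the fit (adjusted p 0.159 and 0.085). Of 21 tested immediate early genes, 14 were lower and 1 was higher (median -1.50). Nr4a2, a nuclear receptor gene induced by receptor signals, had 0 counts in DKO and 32.7, 32.1, 37.5, 38.2 and 44.9 CPM in WT, at least 95.9-fold lower. Nr4a1 stood at 18.3 CPM in DKO and 104 ± 15.5 CPM in WT, Junb, a subunit of AP-1, at 114 against 641 ± 46.6 CPM, and Myc, a growth factor-induced regulator, at 49.0 against 184 ± 20.6 CPM. The higher gene was Zfp36, which encodes the mRNA-destabilising protein tristetraprolin (27.2 against 9.62 ± 0.956 CPM).

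Cell cycle genes were lower in DKO. Of 32 proliferation genes, 28 were lower and 1 higher, with a median log2 difference of -1.96, against 23.1% of all tested genes that were lower. Ccnb1, the mitotic cyclin, stood at 125, 101, 120, 127 and 132 CPM in WT and 11.1 CPM in DKO (log2 -3.45, SE 0.19, edgeR adjusted p 4.97e-05). Birc5, which encodes survivin, stood at 15.9 CPM in DKO and 136 ± 11.3 CPM in WT, and Tuba1b, a tubulin of the spindle, at 222 against 1280 ± 128 CPM. The higher member was Ccnd3, a G1 cyclin of lymphocytes (553 against 432 ± 18.3 CPM). Ccne1, Ccne2 and Hmgb2 did not pass the test.

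Glycolysis and the hypoxia response gave the most uniform pattern among the 26 lists of T cell programmes and pathways: every tested member was lower in DKO. All 17 glycolysis genes (median log2 difference -2.95) and all 16 hypoxia genes (median -3.28, or -2.89 with members at 0 counts in DKO set to their bounds) passed the test, 32 genes in all since Bnip3 is in both lists. Over the alternative settings all 17 glycolysis genes passed in each, and 12 to 16 of the hypoxia genes. The summed glycolysis level was 3208 CPM in DKO and 19069 to 21270 CPM in WT. Hif1a, the oxygen-regulated factor that drives both groups in activated T cells, stood at 429, 438, 415, 403 and 441 CPM in WT and 48.2 CPM in DKO (log2 -3.14, SE 0.10, edgeR adjusted p 1.21e-05). Ldha, the enzyme that makes lactate, stood at 3604, 3234, 3746, 3663 and 3716 CPM in WT and 823 CPM in DKO. Slc16a3, the lactate exporter, stood at 248, 180, 241, 214 and 211 CPM in WT and 5.29 CPM in DKO, 41.4-fold lower. The gap to DKO was larger than the WT range for these genes. Tpi1, a mid-pathway enzyme, was 42.1-fold lower (42.1 against 1772 ± 76.0 CPM), and Gapdh, the next enzyme, 7.71-fold lower (361 against 2779 ± 114 CPM).

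Among the hypoxia genes, Bnip3, a mitophagy receptor, stood at 303, 277, 280, 284 and 326 CPM in WT and 4.90 CPM in DKO (log2 -5.90, SE 0.17, edgeR adjusted p 1.09e-05). Egln3, an oxygen sensor that marks HIF for decay, stood at 4.64 CPM in DKO and 174 ± 18.3 CPM in WT. P4ha2, a collagen prolyl hydroxylase subunit, had 0 counts in DKO and 42.2 to 55.8 CPM in WT, at least 126-fold lower. Adm, Car9 and Vegfa also had 0 counts in DKO, at WT levels of 0.432 to 8.97 CPM, and did not pass with limma-voom (adjusted p 0.185 to 0.389).

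**Figure D3:**
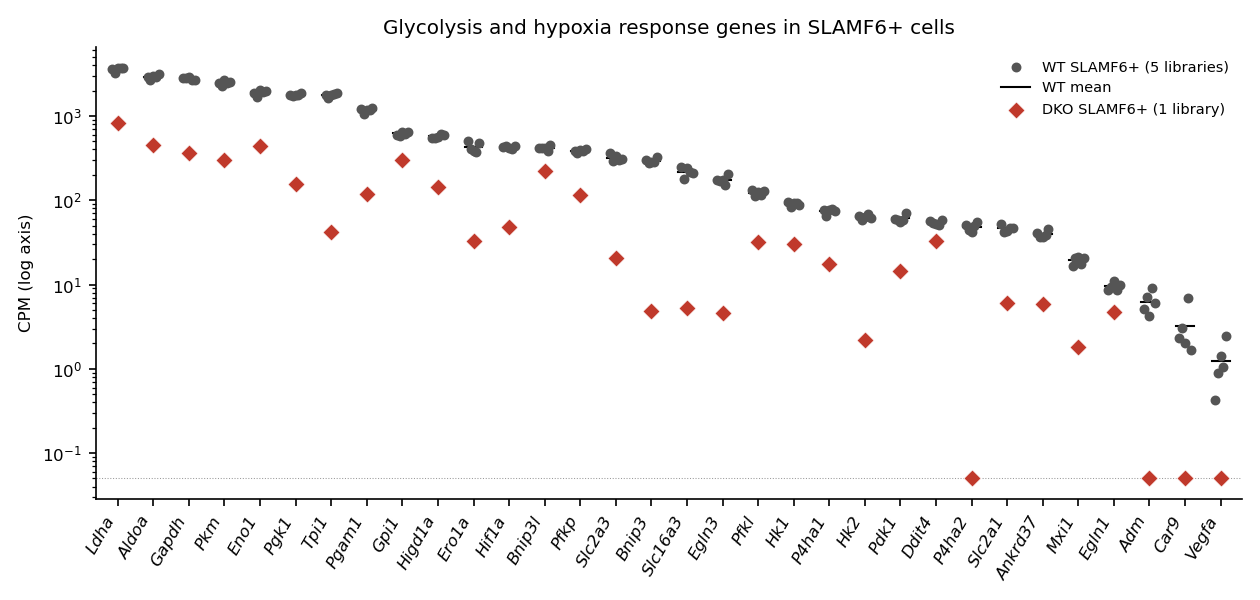
CPM of the 32 glycolysis and hypoxia response genes on a log axis, ordered by their WT mean, in the 5 WT SLAMF6+ libraries (dots, mean as a line) and the DKO SLAMF6+ library (diamond). Points on the dotted line are at 0 counts. Each DKO value lies below all 5 WT values of its gene.

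The 250 bases before the start sites of these 32 genes were searched for ACGTG, the core letters of the element that HIF binds, on both strands. The sequences come from RefSeq (GRCm38.p6 build), which matched 30 of the 32 genes, and 20 of the 30 (66.7%) held the letters in at least 1 window. The share was 24.7% of 10615 matched genes that were tested, 18.5% of all 27025 genes in the table, 3 of 20 matched interferon-induced genes and 30.8% of the matched proliferation genes. The glycolysis and hypoxia lists hold genes known to be driven by HIF, so a larger share can follow from list membership alone. It carries no information on the DKO difference. The letters also form part of CACGTG, the E-box of MYC and other factors, where matches on the 2 strands overlap, so a match is a description and not a binding site. The windows of 3 lower members are shown as examples. They hold 5, 2 and 2 matches, in capitals, and are written 5′ to 3′ on the strand of the gene. Windows of Hif1a (3 matches), Ankrd37, Hk2 and Pgk1 (2 each) are not shown. The window shown for Ldha is chr7:46845554-46845803 (plus strand), that for Bnip3 chr7:138909507-138909756 (minus strand) and that for Slc16a3 chr11:120948817-120949066 (plus strand).
Ldha: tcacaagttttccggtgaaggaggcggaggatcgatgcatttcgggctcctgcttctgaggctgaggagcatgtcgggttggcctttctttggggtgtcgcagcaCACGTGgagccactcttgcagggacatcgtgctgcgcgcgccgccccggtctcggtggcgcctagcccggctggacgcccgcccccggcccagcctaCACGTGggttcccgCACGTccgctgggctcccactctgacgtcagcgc
Bnip3: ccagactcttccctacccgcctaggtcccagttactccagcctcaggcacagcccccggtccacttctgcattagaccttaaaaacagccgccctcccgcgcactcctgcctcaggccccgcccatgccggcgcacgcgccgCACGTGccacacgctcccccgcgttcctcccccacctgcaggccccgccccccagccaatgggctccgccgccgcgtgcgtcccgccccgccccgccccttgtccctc
Slc16a3: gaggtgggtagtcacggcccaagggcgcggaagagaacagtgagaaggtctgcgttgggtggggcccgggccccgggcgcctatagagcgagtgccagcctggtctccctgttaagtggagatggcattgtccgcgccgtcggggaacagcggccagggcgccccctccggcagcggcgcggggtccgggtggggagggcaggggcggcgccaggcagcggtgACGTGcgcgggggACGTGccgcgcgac
In Ldha and Bnip3 the letters lie in the palindrome CACGTG, and Ldha holds a further single match nearer its start. Gapdh and Tpi1, also lower in DKO, hold no ACGTG in this window, and neither does another start site window of Ldha.

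Other metabolic genes were lower by smaller amounts. Of 18 cholesterol synthesis genes, 16 were lower and none higher (median -1.89). Sqle, the squalene oxidising enzyme, stood at 65.8, 51.8, 57.8, 61.4 and 59.4 CPM in WT and 6.06 CPM in DKO. Of 23 nuclear genes of oxidative phosphorylation, 14 were lower and 1 higher (median -0.40). Atp5b, the catalytic subunit of ATP synthase, stood at 657 CPM in DKO and 1118 ± 50.1 CPM in WT, and the higher member was Ndufa4 (614 against 438 ± 28.3 CPM). The mitochondrially encoded transcripts went the other way, with 19 of 29 higher and none lower, and took the larger share of the DKO library given above.

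Interferon-induced genes were divided. Of 29 tested, 13 were higher and 9 lower (median 0.60). Rsad2, the antiviral enzyme viperin, stood at 44.8 CPM in DKO and at 0, 0.256, 0.525, 0.522 and 0.524 CPM in WT, 122-fold higher (edgeR adjusted p 0.000735). Ly6c2, a surface marker of memory T cells and monocytes, stood at 324 CPM in DKO and 0.346 to 7.17 CPM in WT. Isg20, an antiviral exonuclease, stood at 131 CPM in DKO and 5.82 ± 1.84 CPM in WT. The lower members included Ifitm2 and Ifitm3, neighbouring genes of membrane proteins that block virus entry (200 against 509 ± 36.0 CPM and 60.2 against 231 ± 42.6 CPM), and Gbp2, a guanylate-binding protein (51.7 against 193 ± 19.9 CPM). Isg15 and Mx1, both usual markers of type I interferon, did not pass the test. Of 12 MHC class I presentation genes, 7 were higher and 3 lower (median 0.48), with H2-K1 at 4662 CPM in DKO and 2593 ± 155 CPM in WT.

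A family of interferon-inducible DNA sensors and their relatives, the p200 family, lies in a cluster on chromosome 1 and was singled out after its values were seen. Most members were near 0 in WT and passed the filter on low counts only through DKO, where they could only be called higher, so their calls are not counted. Ifi203 stood at 141 CPM in DKO and 0.665 ± 0.346 CPM in WT, Mndal at 158 against 1.28 ± 0.532 CPM, and Ifi213 at 44.8 against 0.0860 ± 0.121 CPM. Ifi206 and Ifi208, with 2 and 3 counts over all WT libraries, stood at 33.7 and 39.3 CPM in DKO, ratios of 905-fold (248 to 7510) and 705-fold (239 to 3440). Aim2, the inflammasome sensor, was present in WT and also higher (26.3 against 9.15 ± 1.92 CPM). Mndal overlaps Ifi203 and Ifi211 on the chromosome, so reads may be shared between them. The Gimap genes, mostly lymphocyte GTPases, lie in a cluster on chromosome 6. They were chosen in the same way, so their calls are not counted either. Most stood above WT in DKO, which follows in part from that choice, and Gimap5 stood below. Gimap4 stood at 851 CPM in DKO and 169 ± 12.3 CPM in WT, and Gimap5 at 127 against 187 ± 8.47 CPM.

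The largest fold changes among genes of at least 20 CPM in either group came from genes silent or nearly silent in 1 group. On the higher side, beside Gzmk, Ccr6, Ifi206 and Ifi208, the 15 included Klra8 and Klra4, Ly49 receptors of NK cells, with 0 counts in WT and 35.5 and 27.9 CPM in DKO (at least 636-fold and 499-fold higher). They also included Tyrobp and Fcer1g, signalling adaptors of NK and myeloid cells (152 and 57.3 CPM in DKO, at most 0.261 CPM in WT), and S100a8 and S100a9, calcium-binding proteins of neutrophils (23.3 and 40.6 CPM in DKO, 0 in WT). Slc4a1, the anion exchanger of red cells, stood at 25.9 CPM in DKO and 0 in every WT library. They further included Nt5e, the ecto-enzyme CD73 (41.0 CPM in DKO), Ifit1bl1, an interferon-induced gene (37.3 CPM), and n-R5s33, a 5S ribosomal RNA gene (32.5 CPM) whose near-identical copies make its count uncertain. Of the 15, 7 belong to the NK, erythroid or neutrophil marker lists, and the part of such cells was not tested.

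On the lower side all 15 genes had 0 counts in DKO. Crabp2, a retinoic acid carrier, stood at 518, 393, 523, 473 and 513 CPM in WT, at least 1250-fold lower in DKO, and Mt2, a metallothionein that binds zinc, at 337, 302, 286, 296 and 305 CPM, at least 789-fold lower. Tnfrsf8, the activation receptor CD30, stood at 136 ± 8.4 CPM in WT and Timp1, a metalloproteinase inhibitor, at 160 ± 37.6 CPM. Further members were Spp1 (osteopontin, 88.9 ± 28.9 CPM), Rgs16 (a G protein regulator, 76.6 ± 8.34 CPM), Lum (the matrix proteoglycan lumican, 70.5 ± 7.91 CPM), Pla2g12a (a phospholipase, 63.6 ± 5.35 CPM) and Ncs1 (a calcium sensor, 51.8 ± 6.67 CPM). Cox7a1, a cytochrome oxidase subunit, and Akr1c18, a progesterone-degrading enzyme, stood at 45.8 ± 7.66 and 37.6 ± 28.9 CPM. Il24, Il13, P4ha2 and Nr4a2, described above, complete the 15. With limma-voom, Akr1c18, Cox7a1, Il24, Ncs1, Nr4a2, Spp1 and Timp1 did not pass (adjusted p 0.0508 to 0.671), and with the random block neither did Crabp2, Mt2 and Rgs16 (0.0522 to 0.128).

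**Figure D4:**
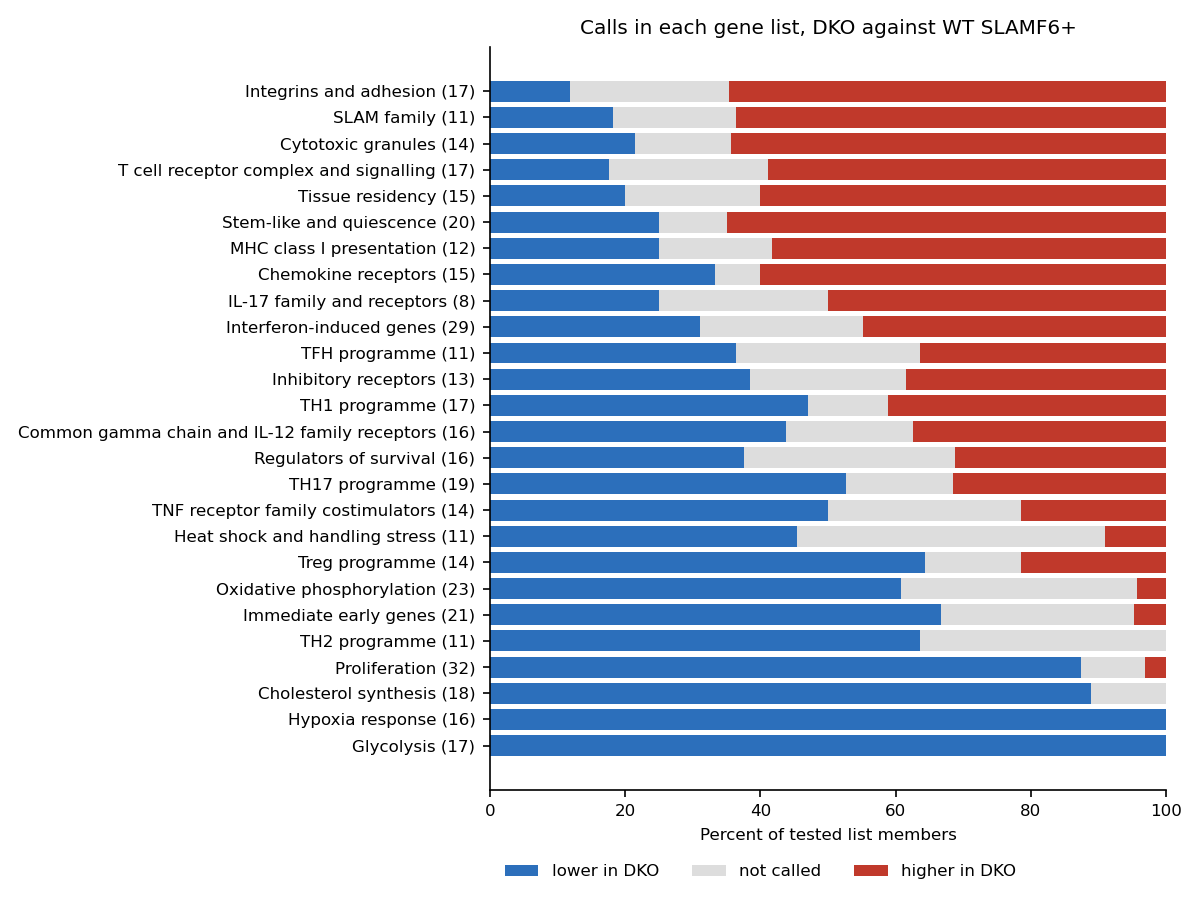
Percent of the tested members of 26 gene lists that were lower (blue), not called (grey) or higher (red) in DKO against WT SLAMF6+ cells, ordered by the difference between the shares. The number of tested members is in brackets. All members were lower in glycolysis (17) and the hypoxia response (16), and 28 of 32 in proliferation.

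Whether the DKO difference in SLAMF6+ cells was unlike that in CXCR6+ cells was tested as an interaction over all 12 libraries, with 1 DKO library in each subset. Of 21942 genes tested, 827 (3.77%) had a larger and 1378 (6.28%) a smaller log2 difference of DKO minus WT in SLAMF6+ than in CXCR6+ (edgeR, adjusted p of 0.05). Of the SLAMF6+ calls among these genes, 1548 of 7339 were also called in the interaction. CPM in this paragraph are scaled over the 12 libraries. Ube2l6, the conjugating enzyme for ISG15, was higher in DKO in SLAMF6+ (186 against 26.8 ± 1.81 CPM) but stood at 14.5 against 18.7 ± 2.27 CPM in CXCR6+ (difference of the log2 changes 3.16, adjusted p 0.000305). Cd200 was lowered less in SLAMF6+ (40.7 against 1119 ± 69.4 CPM) than in CXCR6+ (6.06 against 713 ± 48.3 CPM, difference 2.10, adjusted p 0.000472). Phxr4 was higher in DKO in SLAMF6+ and lower in CXCR6+ (difference 2.99), and Mgarp and Sapcd2 were lower in both but held 0 and 1 counts in DKO CXCR6+, with a call that was lost with limma-voom (adjusted p 0.0573 and 0.0623).

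In the other direction, Ifitm2 stood below WT in SLAMF6+ (225 against 573 ± 45.3 CPM) and above WT in CXCR6+ (554 against 235 ± 13.4 CPM), a difference of -2.58 (adjusted p 0.000158). Its neighbour Ifitm3 showed the same crossing (67.9 against 260 ± 49.6 CPM and 196 against 112 ± 36.1 CPM, difference -2.74, edgeR adjusted p 0.0153). Pbk, a mitotic kinase, was lower in DKO in SLAMF6+ (0 against 32.0 ± 4.71 CPM) and less so in CXCR6+ (5.59 against 18.2 ± 1.96 CPM). The SLAMF6+ call of Pbk was lost with limma-voom (adjusted p 0.0565). Ide, the insulin-degrading enzyme, was lower in SLAMF6+ (26.6 against 72.2 ± 4.34 CPM) and stood at 48.8 against 40.0 ± 1.71 CPM in CXCR6+. The deleted cytokines and the sort genes showed no interaction that passed (adjusted p 0.377 to 1.0), nor did Tcf7, Hif1a, Bnip3 or Slc16a3 (0.42 to 0.959).

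**Figure D5:**
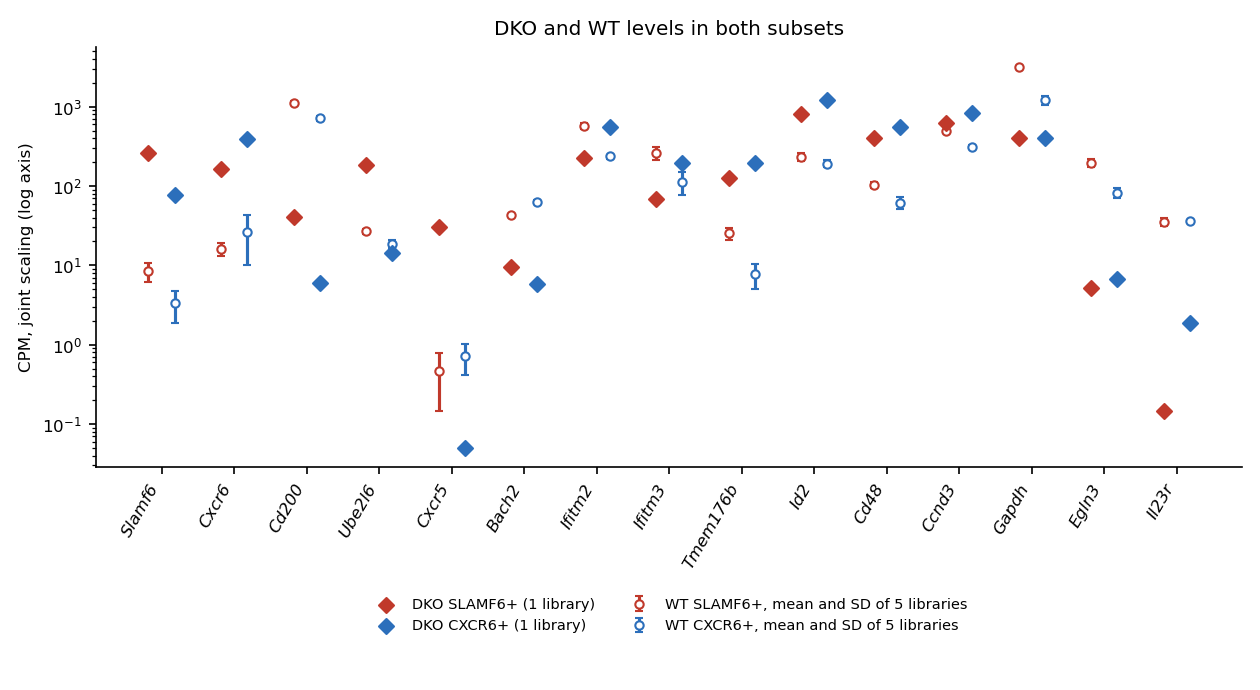
CPM, scaled over 12 libraries, of 15 genes on a log axis in SLAMF6+ (red) and CXCR6+ (blue) cells. Open circles with bars are the mean and SD of 5 WT libraries and diamonds the single DKO library. A diamond at the bottom of the axis is at 0 counts. Ifitm2 lies below WT in SLAMF6+ and above WT in CXCR6+, while Slamf6 and Cxcr6 lie above WT in both.

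The markers of other cells differed between the DKO libraries of the subsets as well. On the joint scale, erythroid markers summed to 144485 CPM in DKO SLAMF6+, nearly all of it haemoglobin, and 3.61 CPM in DKO CXCR6+. Neutrophil markers summed to 100.2 and 1063 CPM in the same order. Dendritic cell markers summed to 1802 and 434 CPM. NK cell markers summed to 1386 and 1482 CPM, above the WT range in both subsets. Most of both sums came from Nkg7 (787 and 1108 CPM), so they do not compare the other NK markers. The red cell gene Alas2 and the receptor gene Cxcr5 were among the genes past the interaction threshold, and the part of the other cells in these differences was not tested.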

How the data were processed

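Bulk RNA was sequenced from 12 libraries of 1000 sorted cells each, and 6 of them form the comparison. The authors deposited 1 table of expected counts per gene and library, and the submitters' processing notes name the tools RSEM 1.3.3 and STAR 2.7.7a and the build mm10. For the gene annotation and any read filtering, nothing is given in the sources used here. Columns were matched to samples by name. Expected counts, estimates that share ambiguous reads among genes, were rounded to whole numbers.

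Groups were taken from the labels. The 10 haemoglobin genes were left out of library sizes, TMM factors were computed over the 6 libraries, and genes passing filterByExpr were tested with edgeR 4.0.16 (quasi-likelihood test, R 4.3.3) with Benjamini-Hochberg adjustment over all tested genes at 0.05. The spread came from the 5 WT libraries alone (4 residual degrees of freedom, common dispersion 0.294). The interaction was fitted over all 12 libraries in the same way. SDs of levels are over the WT libraries. A gene at 0 counts was set against a floor of 3 counts, 0.387 CPM in the DKO library and 0.0558 CPM over the 5 WT libraries. Intervals are exact at 95% and, like the floor, cover counting error only, and the reads carry no stated molecular identifiers. WT pairs differed by 3.67 to 5.98 times the sampling noise, so none was treated as a duplicate.

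The procedure was tested on simulated data. In a comparison of 1 against 5 libraries over 17489 genes, 9% of 2-fold and 34% of 4-fold changes were recovered with 9 false calls. Only 100 genes were changed per fold, so false calls made up more of the calls than the threshold of 0.05 allows. In the interaction over 18534 genes, 0% and 11% were recovered with 0 false calls. The simulation gave the DKO library the spread of the WT libraries, which cannot be checked here. It also changed far fewer genes than the 39.6% called in the data. Alternatives were DESeq2 1.42.0 size factors and Wald test, limma 3.58.1 with voom weights, other filters, haemoglobin kept, receptor, mitochondrial and ribosomal protein genes left out of the library size, thinned libraries, all 12 libraries, a random replicate block, a fixed one for the interaction (added after seeing the data), a 2-fold minimum and each WT library left out.

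The 43 gene lists and the comparison itself were chosen with earlier results of these data known, and the p200 and Gimap families after their values were seen. Named genes were the deleted and sort genes, list members, the 15 highest and 15 lowest called fold changes at 20 CPM or more with DKO outside the WT range, and the 5 smallest interaction p in each direction. From these last sets receptor segments, haemoglobin, mitochondrial, ribosomal protein, small RNA and sex-linked genes, pseudogenes and unnamed models were left out. Some genes that the rule names are not reported here. Coordinates are from the GENCODE M21 annotation (GRCm38) and promoters, 250 bases, from RefSeq (GRCm38.p6).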

Additional observations from a re-analysis of the deposited data

Results flagged for a closer look

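In 11 of 165 sets of 5 WT SLAMF6+ values of a named gene, 1 library lay far from the other 4 by Dixon's criterion, which chance meets in about 1 of 20 sets. WT replicate 5 was highest for Ccl3 (324 CPM) and Il17f (127 CPM), and WT replicate 1 for Ctla4 (196 CPM). WT replicate 4 was highest for Car9 (6.97 CPM) and WT replicate 3 for Ccne1 (25.98 CPM). WT replicate 2 was lowest for Gata3 (142 CPM) and Ldha (3234 CPM). For 4 genes nearly silent in WT the highest library held only a few counts: Cd8a in replicate 2 (0.128 CPM), Fcer1g in replicate 3 (0.175 CPM), Ifi206 in replicate 1 (0.173 CPM) and Tyrobp in replicate 4 (0.261 CPM). DKO lay outside the WT range for all of these but Ccne1.

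For 34 of 160 named genes the DKO difference was unlike between SLAMF6+ and CXCR6+ cells by the edgeR interaction test, each DKO group being 1 library. Over all 21942 genes tested, 3.77% had a larger and 6.28% a smaller log2 difference in SLAMF6+. The named genes include some chosen for their small interaction p, so part of the 34 was picked by the same test. Values below are the log2 difference of DKO minus WT in SLAMF6+ minus that in CXCR6+, with CPM scaled over the 12 libraries. Among surface receptors, Lag3, an inhibitory receptor, was lower in both subsets but less so in SLAMF6+ (4.56, with 10.04 against 190 CPM in SLAMF6+ and 4 counts against 215 CPM in CXCR6+). Il2rb, the IL-2 and IL-15 receptor chain, was lower in SLAMF6+ (223 against 362 CPM) and stood at 270 against 193 CPM in CXCR6+ (-1.18). Cd200 gave 2.10, Itgav 1.08, Il23r -3.52 and Il12rb2 -1.06. Cd48 gave -1.21, standing at 400 against 104 CPM in SLAMF6+ and 549 against 61.8 CPM in CXCR6+, and Cd3e gave -0.64.

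Among regulators, Bach2 gave 1.26 (9.60 against 42.7 CPM in SLAMF6+, 5.83 against 62.2 CPM in CXCR6+), Bcl2 0.80, Sh2d1a 0.83, Id2 -0.86 and Irf4 -1.45. In metabolism, Gapdh gave -1.33 (407 against 3129 CPM in SLAMF6+, 397 against 1213 CPM in CXCR6+), Tpi1 -1.59, Ldha -0.76, Egln3 -1.62 and Sqle -1.42, each of them lower in DKO in SLAMF6+ cells. In the cell cycle and in protein folding, Ccnd3 gave -1.08, Tuba1b -1.23, Sapcd2 5.34 and Dnaja1 -0.83. Among interferon-induced and related genes, Ifitm2 gave -2.58, Ifitm3 -2.74, Gbp2 -1.33 and Ube2l6 3.16. The others were Ide (-1.72), Tmem176b (-2.32), Phxr4 (2.99) and Alas2 (9.15, with 457 against 1.76 CPM in SLAMF6+ and 0.583 against 1.32 CPM in CXCR6+). Pbk (-9.47) and P4ha2 (-6.78) had 0 counts in DKO SLAMF6+, and Mgarp (7.20) and Cxcr5 (11.69) had 0 counts in DKO CXCR6+, so these fitted values depend on the prior count and give no bound.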

How the results depend on the processing

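Of the 151 named genes called, 124 kept call and direction in every one of 15 alternative settings that gave a value, and no gene of the 7342 called was called in the opposite direction under 8 of these settings (other tests, scalings and sets of libraries). Limma-voom called 4753 genes higher, against 3067. Leaving out each WT library in turn gave 2721 to 3140 higher, 3859 to 4338 lower and 1669 to 1989 interaction calls, the last against 2205, where DESeq2's Wald test gave 3349. Among the genes named in the text 2, called in no setting, changed sign. Ifng went from -0.96 to between -1.26 and 0.10 with 1 WT library left out, the highest without WT replicate 5 (44.8 CPM). Mx1, near 0 (-0.03, SE 0.59), went to 0.05 with DESeq2 size factors, 0.01 with thinned libraries, 0.10 with limma-voom with or without the block, and -0.18 to 0.12 with 1 WT library left out. Within SLAMF6+ cells no paired analysis was possible because DKO shares a number with no WT library. With the replicate number as a random block (correlation 0.0227, all 12 libraries, limma-voom) 4673 genes were higher and 2821 lower. The subsets do share numbers, and a fixed replicate block, added after seeing the data, gave 1555 interaction calls (530 higher, 1025 lower), 1418 of them shared with the fit without it. It kept 30 of the 34 named genes, losing Bcl2, Cd3e, Id2 and Sh2d1a (adjusted p 0.0544 to 0.103). The WT deviations of same-numbered libraries correlated at only -0.009 to 0.058, and at -0.14 to 0.102 between other numbers, so the numbers were not taken as pairs. The cause of these shifts was not tested. Depth limits statements on genes near the floor of 3 counts.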

Other observations

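The receptors of the common γ chain and IL-12 family did not move in 1 direction: of 16 genes, 6 were higher and 7 lower in DKO by the edgeR test (median log2 difference 0.02). Il27ra, the IL-27 receptor chain, stood at 106 CPM in DKO and 29.7 ± 1.61 CPM in WT (SD, n = 5), and Il9r, the IL-9 receptor chain, at 8.51 against 0.243 ± 0.234 CPM. Il21r, the receptor for the cytokine whose gene was nearly silent in DKO, stood at 66.7 against 231 ± 20.6 CPM, and Il2rb at 198 against 321 ± 17.3 CPM. Inhibitory receptors were split as well: Lag3 (8.90 against 169 ± 20.8 CPM) and Pdcd1, which encodes PD-1 (16.9 against 73.0 ± 3.62 CPM), were lower. Cd160, a receptor shared with NK cells (15.9 against 0.416 ± 0.343 CPM), and Entpd1, the ecto-enzyme CD39 (31.3 against 8.27 ± 0.715 CPM), were higher.

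Of 16 regulators of survival, 5 were higher and 6 lower (median 0.00). The BCL-2 relative Mcl1, which protects lymphocytes (28.9 against 14.8 ± 0.823 CPM), and Bcl2l11, which encodes the death-promoting BIM (10.6 against 3.39 ± 0.908 CPM), were both higher. Bcl2 (72.5 against 108 ± 8.91 CPM) was lower. Of 11 heat shock genes, 5 were lower and 1 higher (median -0.95), a list that also marks handling of cells. Hspa1a, the inducible HSP70, had 2 counts in DKO (0.258 against 20.9 ± 7.45 CPM), with a call lost in limma-voom (adjusted p 0.297), Hsp90ab1 stood at 1025 against 1902 ± 83.4 CPM, and the higher gene was Dnaja1, a co-chaperone (378 against 245 ± 20.5 CPM).

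Among the remaining marker lists of other cells, CD8 T cell markers summed to 191 CPM in DKO and 49.0 to 60.7 CPM in WT. Cd8a stood at 13.9 CPM in DKO and held 1 count over all WT libraries, while Cd8b1, the partner chain, stood at 1.93 against 19.1 ± 2.40 CPM. Markers of γδ T cells summed to 50.7 CPM in DKO and 4.90 to 8.88 CPM in WT, and those of microglia to 937 against 260 to 371 CPM. Of the 10 microglia markers, 4 had 0 counts in DKO, so the larger sum did not come from all of them. Those of innate lymphoid cells summed to 1163 against 424 to 517 CPM, most of it from Id2 and Il7r, which T cells also express (718 and 274 CPM in DKO). Of the 8 tested, 4 were higher and 2 lower. Neuronal markers summed to 5.42 CPM in DKO and 33.4 to 43.1 CPM in WT, and fibroblast markers to 1.93 against 71.0 to 102 CPM. Most of the WT fibroblast sum came from Lum, at a mean of 70.5 CPM of 82.3 CPM. The called share of tested genes lay between 34.5% on chromosome 12 and 49.4% on chromosome 19 among the 19 autosomes.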
